A study of Canis lupus familiaris with 20 samples.

Results

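The Toll-like receptors were examined in canine mammary cancer cells and canine macrophages that had been grown together and sorted apart. A receptor was taken as a member of the family when the RefSeq accession of its probe carried a symbol made of TLR and a number. This gave 7 receptors out of the 1045 symbols that could be named on the array, with 9 probes and 13 spots. The receptors TLR1, TLR2, TLR4, TLR5 and TLR10 are placed at the cell surface, and TLR7 and TLR9 in endosomes. No probe was matched to TLR3, TLR6 or TLR8, which were not analysed here.

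Each of 5 canine mammary tumour lines was grown as a mono-culture and as a co-culture with macrophages for 72 h: the adenocarcinomas CMT-W1 and CMT-W2, the anaplastic cancer P114, the spindle-cell tumour CMT-U309 and the simple carcinoma CMT-U27. The macrophages were derived from CD64-positive monocytes sorted from the blood of healthy dogs, whose number and age are not given in the sources used here, and were grown with no added growth factor, alone or on top of a cancer line stained with the dye CMTMR. After co-culture the cells were trypsinised and sorted into stained cancer cells and unstained macrophages, whereas the mono-cultures were scraped and not sorted, so harvest and co-culture cannot be told apart. Every population was hybridised on a pair of 2-colour arrays, co-culture against mono-culture, with the dyes exchanged. A pair was counted as 1 replicate, which gave n = 5 for the cancer cells (1 per line) and n = 5 for the macrophages (1 per co-culture). The 5 lines are different tumours and not repeats of 1 culture. How many macrophage mono-cultures were made is not given in the sources used here, and the p-values then measure only the spread between these samples.

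Toll-like receptors are membrane proteins that recognise conserved parts of microbes and some molecules released from damaged cells. TLR2, usually paired with TLR1 or TLR6, recognises bacterial lipoproteins, TLR4 with its partners MD-2 and CD14 recognises lipopolysaccharide, and TLR5 recognises flagellin, whereas TLR7 and TLR9 read single-stranded RNA and unmethylated CpG DNA taken up into endosomes. Most of them signal through the adaptor MyD88 to NF-kB and MAP kinases and induce cytokines, chemokines and co-stimulatory molecules, and monocytes and macrophages are among the cells best known for carrying TLR2 and TLR4.

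On the 20 arrays no receptor spot was saturated, and 4 receptor spots had an outlier mark and were left out. One array of the cancer cells of CMT-U309 stood apart, with 9870 outlier-marked spots (at most 1438 on any other array) and 96.3% of spots well above background in the co-culture channel. Without CMT-U309 the cancer cell ratios were 4.57 for TLR2, 3.70 for TLR4 and 2.74 for TLR1, and all 3 kept their call. The mono-cultured macrophages carried their markers: all 14 of the 25 listed macrophage markers that had a probe were well above background on all 10 arrays. Among the mono-cultured cancer cells the median level of the same markers lay between 0.363% and 1.85% of that of mono-cultured macrophages. In the sorted populations the markers did not separate the cell types. Their median level was 2.2% to 57.8% of that of mono-cultured macrophages in the co-cultured cancer cells and 4.38% to 23.2% in the co-cultured macrophages, and the highest value was that of the cancer cells of CMT-U27. In bulk RNA, fewer cells of a type and less RNA per cell cannot be told apart.

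In the co-cultured cancer cells the surface receptors TLR2, TLR4 and TLR1 rose, and neither endosomal receptor passed the test. Of 6 receptors tested 3 were called, all of them higher, while 14.2% of the 24009 genes tested were called in either direction, 6.68% higher and 7.54% lower. The median log2 ratio of the 6 receptors was 1.84 and that of all genes tested was -0.05. The fit was limma on the 5 log2 ratios, with Benjamini-Hochberg adjustment over all genes tested and a threshold of 0.05.

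**Figure D1:**
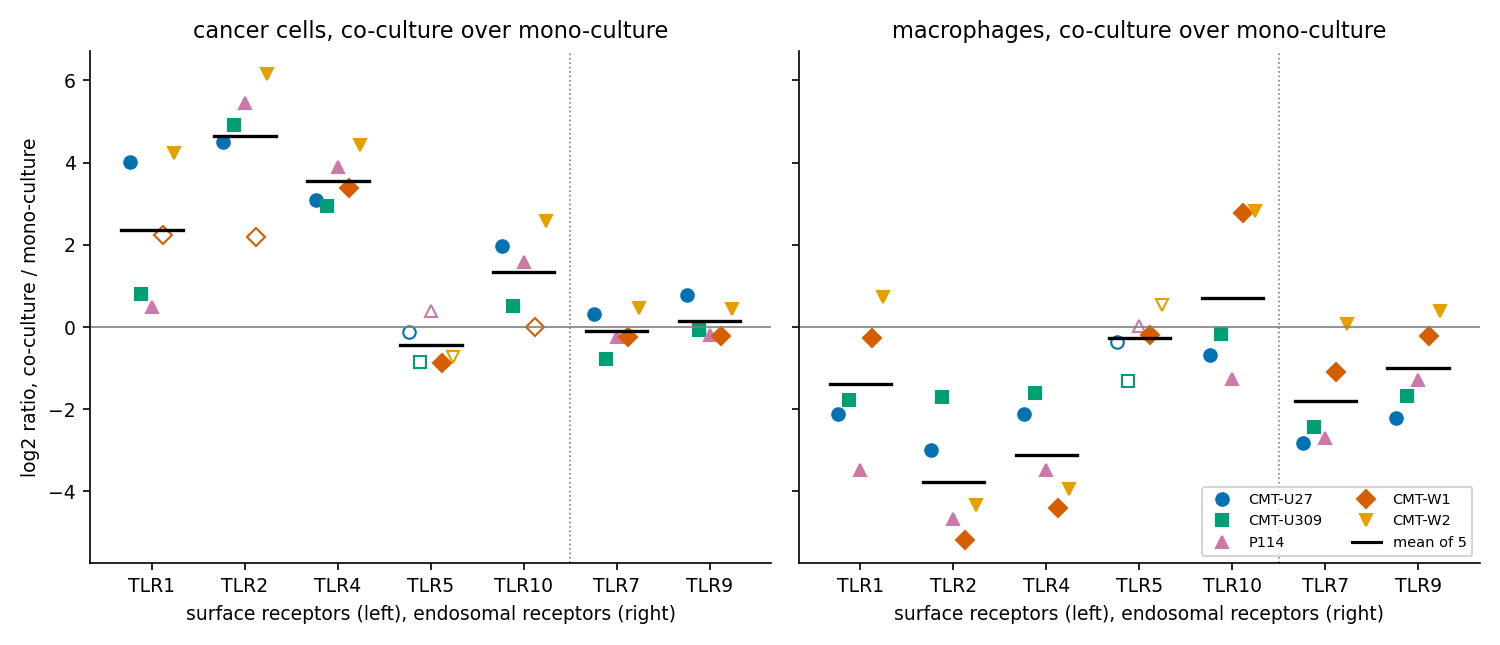
Log2 ratio (co-culture / mono-culture) of the 7 receptors in the cancer cells (left) and macrophages (right), 1 point per co-culture and the mean of 5 as a bar; open symbols are populations in which neither culture was well above background on both arrays. TLR2 and TLR4 lie above 0 in all 5 cancer cell populations and below 0 in all 5 macrophage populations.

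TLR2 had log2 ratios in the cancer cells of 4.499 in CMT-U27, 4.92 in CMT-U309, 5.44 in P114, 2.18 in CMT-W1 and 6.15 in CMT-W2. All 5 lines lay above 0, with CMT-W1 lowest and CMT-W2 highest. The mean was 4.64 ± 1.51 (SD, n = 5), a 24.9-fold increase with a 95% interval of 3.41 to 5.87 on the log2 scale (limma, adjusted p = 0.00497). In the mono-cultures TLR2 was well above background on 4 of 10 arrays, those of CMT-U27 and CMT-U309, against 9 of 10 arrays in the co-cultures, so the size of the ratio in the other 3 lines depends on a denominator near background.

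TLR4, the lipopolysaccharide receptor, had the narrowest spread among the receptors that rose, by the brightest probe of each. Its log2 ratios were 3.09 in CMT-U27, 2.93 in CMT-U309, 3.89 in P114, 3.39 in CMT-W1 and 4.44 in CMT-W2. All 5 lines lay above 0, at a mean of 3.55 ± 0.62 (SD, n = 5), an 11.7-fold increase (limma, adjusted p = 0.00115). TLR4 was well above background on 10 of 10 co-culture arrays and on 8 of 10 mono-culture arrays.

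TLR1, which pairs with TLR2, split the lines. Its log2 ratios were 4.01 in CMT-U27, 0.81 in CMT-U309, 0.48 in P114, 2.24 in CMT-W1 and 4.23 in CMT-W2. All 5 lines lay above 0, but CMT-U309 and P114 lay under 1 while CMT-U27 and CMT-W2 lay above 4. In the mono-cultures TLR1 was well above background on 5 of 10 arrays, both of CMT-U309 and of P114 and 1 of CMT-U27, so the ratios of the other lines, and in part that of CMT-U27, have a denominator near background. The mean was 2.35 ± 1.74 (SD, n = 5) and passed by a small margin (limma, adjusted p = 0.0407). Leaving out CMT-U27 gave 1.94 (adjusted p = 0.112), leaving out P114 gave 2.82 (0.0524), leaving out CMT-W1 gave 2.38 (0.0775) and leaving out CMT-W2 gave 1.89 (0.0932), so each of these lines decided the call. With normexp background correction and loess, in place of the deposited ratio, TLR1 was at 0.95, TLR2 at 2.10 and TLR4 at 2.18, all above 0 and none of them called (adjusted p = 0.121, 0.0766 and 0.05).

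TLR10, the remaining tested surface receptor, had log2 ratios of 1.97 in CMT-U27, 0.51 in CMT-U309, 1.57 in P114, 0.00 in CMT-W1 and 2.58 in CMT-W2. In CMT-W1 it was not well above background in either culture, and the ratio was 0 on both arrays. The value of CMT-U309 rests on 1 array, since the spot on the other had an outlier mark. The mean of 1.33 ± 1.06 (SD, n = 5) did not pass the test (limma, adjusted p = 0.0625). Leaving out CMT-W1 gave 1.66 and passed (adjusted p = 0.0391). With normexp background correction in place of the deposited ratio TLR10 was at 0.18 with loess (adjusted p = 0.331) and at 0.09 with median centring (0.657). In the mono-cultures TLR10 was well above background on 4 of 10 arrays, so the size of its ratio depends on denominators near background. TLR5 was well above background on 5 of 10 co-culture arrays and 5 of 10 mono-culture arrays, and on both arrays of a pair only in CMT-W1, so it did not pass the filter and was not tested. Its ratios ran from -0.88 to 0.39.

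The endosomal receptors stayed close to 0 in the cancer cells. TLR7 had log2 ratios of 0.32 in CMT-U27, -0.79 in CMT-U309, -0.24 in P114, -0.25 in CMT-W1 and 0.46 in CMT-W2, with a mean of -0.10 ± 0.50 (SD, n = 5) and a 95% interval of -0.69 to 0.49 (limma, adjusted p = 0.811). TLR9 had 0.78, -0.08, -0.20, -0.22 and 0.45 in the same order, with a mean of 0.15 ± 0.45 (SD, n = 5) and an interval of -0.42 to 0.71 (adjusted p = 0.704). Both receptors were above 0 in CMT-U27 and CMT-W2 only, and both were measured: TLR7 was well above background on 10 of 10 mono-culture arrays and TLR9 on 9.

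Macrophage markers rose in the cancer cells as TLR2 and TLR4 did. The order of the lines differed by ratio, and was nearly that of TLR4 by level, as given below. Of 14 macrophage markers tested in the cancer cells 12 were called higher and 0 lower, with a median log2 ratio of 3.08. By line the median of the markers was 4.88 in CMT-U27, 2.70 in CMT-U309, 2.92 in P114, 2.16 in CMT-W1 and 3.72 in CMT-W2. The summed level of the 14 markers ran from 11400 to 66500 in the mono-cultured cancer cells and from 29500 to 913000 in the co-cultured ones, against 931000 to 1230000 in mono-cultured macrophages. Of the epithelial or mammary tumour markers 7 were tested, of which 0 were called higher and 1, CAV1, lower. The lymphocyte list had 1 of 3 tested markers called higher (CD28) and the granulocyte list 0 of 2. Per the study's methods, the sorted populations were almost pure when measured again after the sort, and were checked under a fluorescence microscope. The part of other cells in the receptor ratios was not tested. Without CMT-U27, the line with the highest marker level, TLR2 was at 4.67 (limma, adjusted p = 0.0209) and TLR4 at 3.66 (adjusted p = 0.00606). The lines that remain had marker medians of 2.16 to 3.72, so this fit does not test the part of other cells.

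In macrophages grown as a co-culture TLR2, TLR4 and the endosomal receptor TLR7 fell. Of 6 receptors tested 3 were called, all of them lower. This share is close to that of all genes called in either direction. Of the 24209 genes tested 49.3% were called, 21.2% higher and 28.1% lower. The median log2 ratio of the 6 receptors was -1.59 and that of all genes tested was -0.17.

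TLR2 had log2 ratios in the macrophages of -2.997 with CMT-U27, -1.70 with CMT-U309, -4.67 with P114, -5.17 with CMT-W1 and -4.32 with CMT-W2. All 5 co-cultures lay below 0, with CMT-U309 least affected. The mean was -3.77 ± 1.41 (SD, n = 5), a level 13.6-fold lower than in the mono-culture (limma, adjusted p = 0.00113).

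TLR4 followed TLR2 across the co-cultures. Its log2 ratios were -2.12 with CMT-U27, -1.61 with CMT-U309, -3.48 with P114, -4.41 with CMT-W1 and -3.93 with CMT-W2. CMT-U309 was again least affected and CMT-W1 most affected, at a mean of -3.11 ± 1.20 (SD, n = 5), a level 8.63-fold lower (limma, adjusted p = 0.00142). Both receptors were well above background on all 10 arrays in both cultures, so these ratios were measured on both sides.

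TLR7 fell in the macrophages, but not with every line. Its log2 ratios were -2.83 with CMT-U27, -2.43 with CMT-U309, -2.69 with P114, -1.09 with CMT-W1 and 0.06 with CMT-W2. The co-cultures with CMT-U27, CMT-U309 and P114 lay close to each other and below those with the adenocarcinoma lines CMT-W1 and CMT-W2. The mean was -1.79 ± 1.25 (SD, n = 5), a level 3.47-fold lower (limma, adjusted p = 0.0137). The call was lost with normexp background correction and median centring in place of the deposited ratio (-1.08, adjusted p = 0.0862) and with no filter on dim probes (-1.79, adjusted p = 0.0543).

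TLR9 and TLR1 were likewise highest with CMT-W1 and CMT-W2, and their mean ratios did not pass. TLR9 had -2.22 with CMT-U27, -1.67 with CMT-U309, -1.28 with P114, -0.23 with CMT-W1 and 0.39 with CMT-W2, with a mean of -1.001 ± 1.06 (SD, n = 5; limma, adjusted p = 0.0698). TLR1 had -2.11, -1.79, -3.48, -0.27 and 0.74 in the same order, with a mean of -1.38 ± 1.64 (SD, n = 5; adjusted p = 0.0777). With both receptors CMT-W1 lay near 0 and CMT-W2 above it. Without CMT-W2 both passed, TLR9 at -1.35 (adjusted p = 0.03) and TLR1 at -1.91 (adjusted p = 0.0249).

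TLR10 had opposite signs between co-cultures. Its log2 ratios in the macrophages were -0.67 with CMT-U27, -0.18 with CMT-U309, -1.27 with P114, 2.77 with CMT-W1 and 2.83 with CMT-W2. The 2 adenocarcinoma co-cultures stood together above the other 3, and the mean of 0.70 ± 1.96 (SD, n = 5) did not pass (limma, adjusted p = 0.411). The value with CMT-W1 averages 1.75 and 3.79 from arrays with exchanged dyes. Its mono-culture was well above background on only 1 of these arrays. TLR5 was well above background on 5 of 10 arrays in each culture and was not tested, with ratios from -1.30 to 0.53.

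The macrophages therefore gave different orders of the co-cultures for different receptors. With CMT-W1 and CMT-W2, TLR2 was at -5.17 and -4.32 while TLR1 was at -0.27 and 0.74 and TLR10 at 2.77 and 2.83. With CMT-U309, TLR2, TLR4 and TLR1 lay close together at -1.70, -1.61 and -1.79. With 2 adenocarcinoma co-cultures against 3 others no permutation of the labels can reach the threshold, so this split is given as values with no test. Across the 10 populations TLR2 and TLR4 had a Pearson correlation of 0.98 in their log2 ratios and TLR7 and TLR9 one of 0.95, whereas TLR4 and TLR10 had one of 0.12. These are descriptions over 10 populations that share the difference between cell types and, for the macrophages, possibly a mono-culture.

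In the co-cultured macrophages the macrophage markers fell and most of the listed tumour markers that had a probe rose. The order of the co-cultures differed between the marker lists and between receptors. Of 14 macrophage markers tested in the macrophages 13 were called lower and 0 higher, with a median log2 ratio of -3.41. By co-culture the median of the macrophage markers was -2.85 with CMT-U27, -1.87 with CMT-U309, -3.92 with P114, -4.39 with CMT-W1 and -4.53 with CMT-W2, lowest with the adenocarcinoma lines. The summed level of the 14 markers was 931000 to 1230000 in the mono-cultured macrophages and 101000 to 423000 in the co-cultured ones. Of 22 listed epithelial or mammary tumour markers 8 had a probe, with no keratin, CDH1 or EPCAM among them. Of these 8, all tested, 6 were called higher and 1 lower, with a median of 3.55. Those that rose were CAV1, CAV2, COL1A1, COL1A2, BGN and SERPINH1, while ERBB2 was called lower (-0.74, limma, adjusted p = 0.0469). MUC1 was at 0.60 and not called (adjusted p = 0.405). By co-culture the median of the 8 was 3.53 with CMT-U27, 5.02 with CMT-U309, 4.28 with P114, 1.54 with CMT-W1 and 2.37 with CMT-W2. Their summed level was 3690 to 10800 in mono-culture and 7050 to 494000 in co-culture. Of 5 lymphocyte markers 0 were called higher and 2 lower, and of 2 granulocyte markers 1, ELANE, was called higher. Whether these cells account for any of the receptor ratios was not tested.

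The ratios of the cell types differed for 4 of 6 receptors, all of them lower in the macrophages, while 31.9% of the 25221 genes tested were called in either direction, 15% higher and 16.9% lower. The difference is the mean log2 ratio of the macrophages minus that of the cancer cells, tested with limma over the 10 populations. It was -8.41 for TLR2 (95% interval -10.15 to -6.66, adjusted p = 3.54e-05), -6.66 for TLR4 (-7.86 to -5.46, adjusted p = 1.58e-05) and -3.74 for TLR1 (-5.74 to -1.73, adjusted p = 0.00955). For TLR2 and TLR4 the 5 ratios of one cell type did not overlap with those of the other, and for TLR1 they did, since 0.74 in the macrophages with CMT-W2 exceeded 0.48 in P114. How many of all genes lack such an overlap was not counted, so its absence does not set TLR2 and TLR4 apart.

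TLR7 differed by -1.70 (limma, adjusted p = 0.0347), TLR9 by -1.15 (adjusted p = 0.0936) and TLR10 by -0.63 (adjusted p = 0.604, with the sign turned under normexp with loess or with median centring). Leaving out CMT-U27 kept TLR2 at -8.64 and TLR4 at -7.02 (adjusted p = 0.000364 and 0.00015), but ended the call of TLR1 (-3.14, adjusted p = 0.052) and of TLR7 (-1.33, adjusted p = 0.146). Normexp with median centring also ended the calls of TLR1 (-1.84, adjusted p = 0.0958) and of TLR7 (-1.22, adjusted p = 0.098). The call of TLR7 was also lost without CMT-U309 (-1.71, adjusted p = 0.0665), without P114 (-1.51, 0.114) and without CMT-W1 (-1.91, 0.0524).

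Cell type and scan were nearly the same split. The slides with the cancer cells and the macrophages of CMT-U27 were scanned on one day, and those with the other 4 macrophage populations on another. With the scan day as a block TLR2 differed by -7.63 (limma, adjusted p = 0.0131) and TLR4 by -5.67 (adjusted p = 0.00856), while TLR1 (-4.47, adjusted p = 0.114) and TLR7 (-2.73, adjusted p = 0.0906) were not called. A single slide held both cell types, the macrophages of CMT-U27 and the cancer cells of CMT-W1. On it the difference was -5.18 for TLR2, -5.51 for TLR4, -4.35 for TLR1, -2.57 for TLR7, -2.00 for TLR9 and -0.67 for TLR10, and a fit with the slide as a block called none of the 6 (adjusted p from 0.183 to 0.91).

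**Figure D2:**
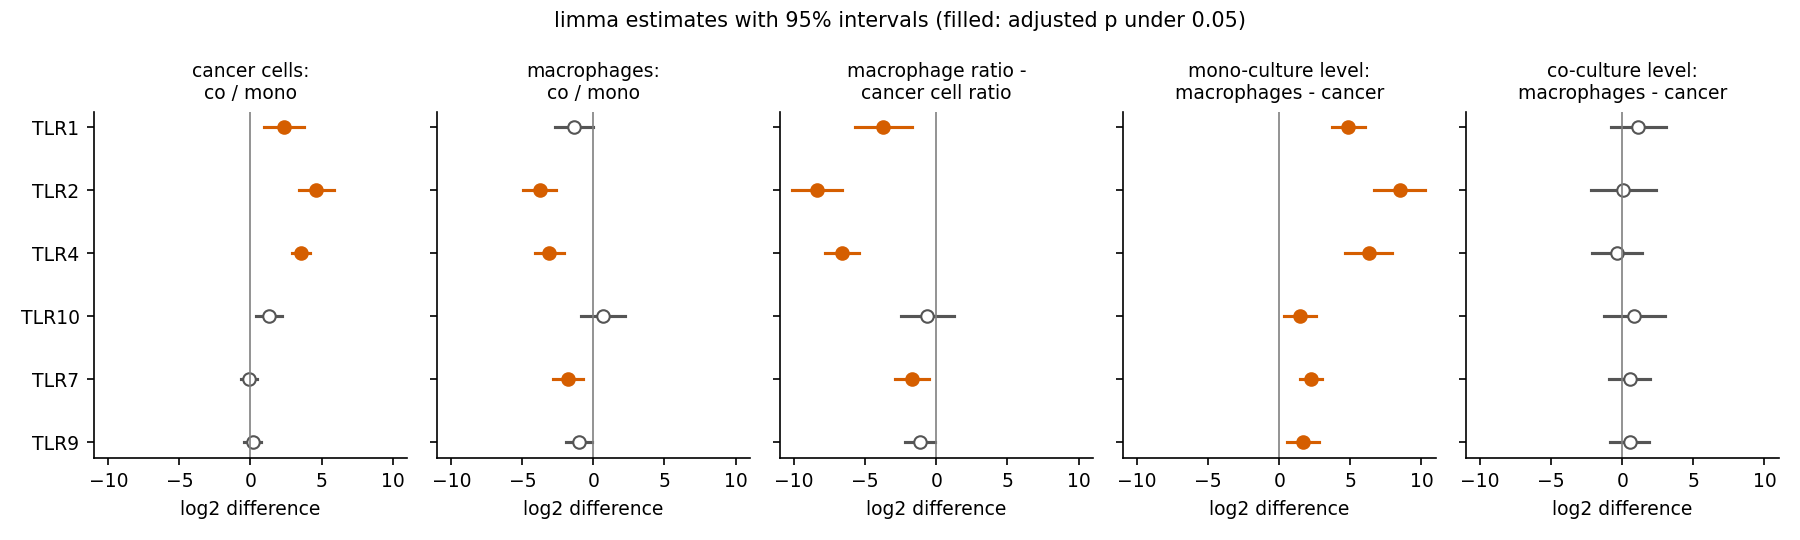
Estimates of the 5 comparisons for the 6 receptors tested, with 95% intervals; filled orange points have an adjusted p under 0.05 (limma). TLR2 and TLR4 are called in the first 4 comparisons, and no receptor is called between the co-cultured populations.

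The levels of the separate dye channels placed the mono-cultures far apart. These are log2 intensities after Aquantile normalization, averaged over a dye-swap pair, and only levels of the same probe were compared. The values of the mono-cultured macrophages may all come from a single culture. Their SD, and their part in the p-values, may then hold the spread between arrays only. A gene was tested when well above background in the mono-culture, on both arrays in at least 3 of 5 pairs of either cell type. TLR1, TLR2 and TLR10 met this in the macrophages only. A count of receptors higher in macrophages is therefore partly set by this filter. In mono-culture all 6 receptors tested were called higher in macrophages than in cancer cells. Of the 23662 genes tested 34.8% were called in either direction, 19.9% higher and 15% lower. The difference was 8.47 for TLR2 (limma, adjusted p = 1.63e-05), 6.27 for TLR4 (8e-05), 4.85 for TLR1 (3.84e-05), 2.21 for TLR7 (0.00073), 1.65 for TLR9 (0.0269) and 1.45 for TLR10 (0.0446). The median over the 6 receptors was 3.53, against 0.13 over all genes tested. In the mono-cultured cancer cells TLR2, TLR1 and TLR10 were well above background on only 4, 5 and 4 of 10 arrays, so the size of these differences depends on levels near background. With normexp, loess and Aquantile in place of the processed signals, 5 of the 6 were called and the differences were 5.08 for TLR2, 4.54 for TLR4, 2.57 for TLR1, 1.53 for TLR7 and 0.64 for TLR9 (limma, adjusted p from 4.64e-07 to 0.0437), while TLR10 was at 0.11 and not called (adjusted p = 0.451). TLR10 was not called with no filter on dim probes either (adjusted p = 0.0587). The call of TLR10 was lost without CMT-U27 (1.36, adjusted p = 0.128), without P114 (1.54, 0.098) or without CMT-W2 (1.41, 0.141), and that of TLR9 when any line but CMT-W1 was left out (1.45 and 0.101 without CMT-U27, 1.38 and 0.0918 without CMT-U309, 1.65 and 0.0846 without P114, 1.63 and 0.0978 without CMT-W2).

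**Figure D3:**
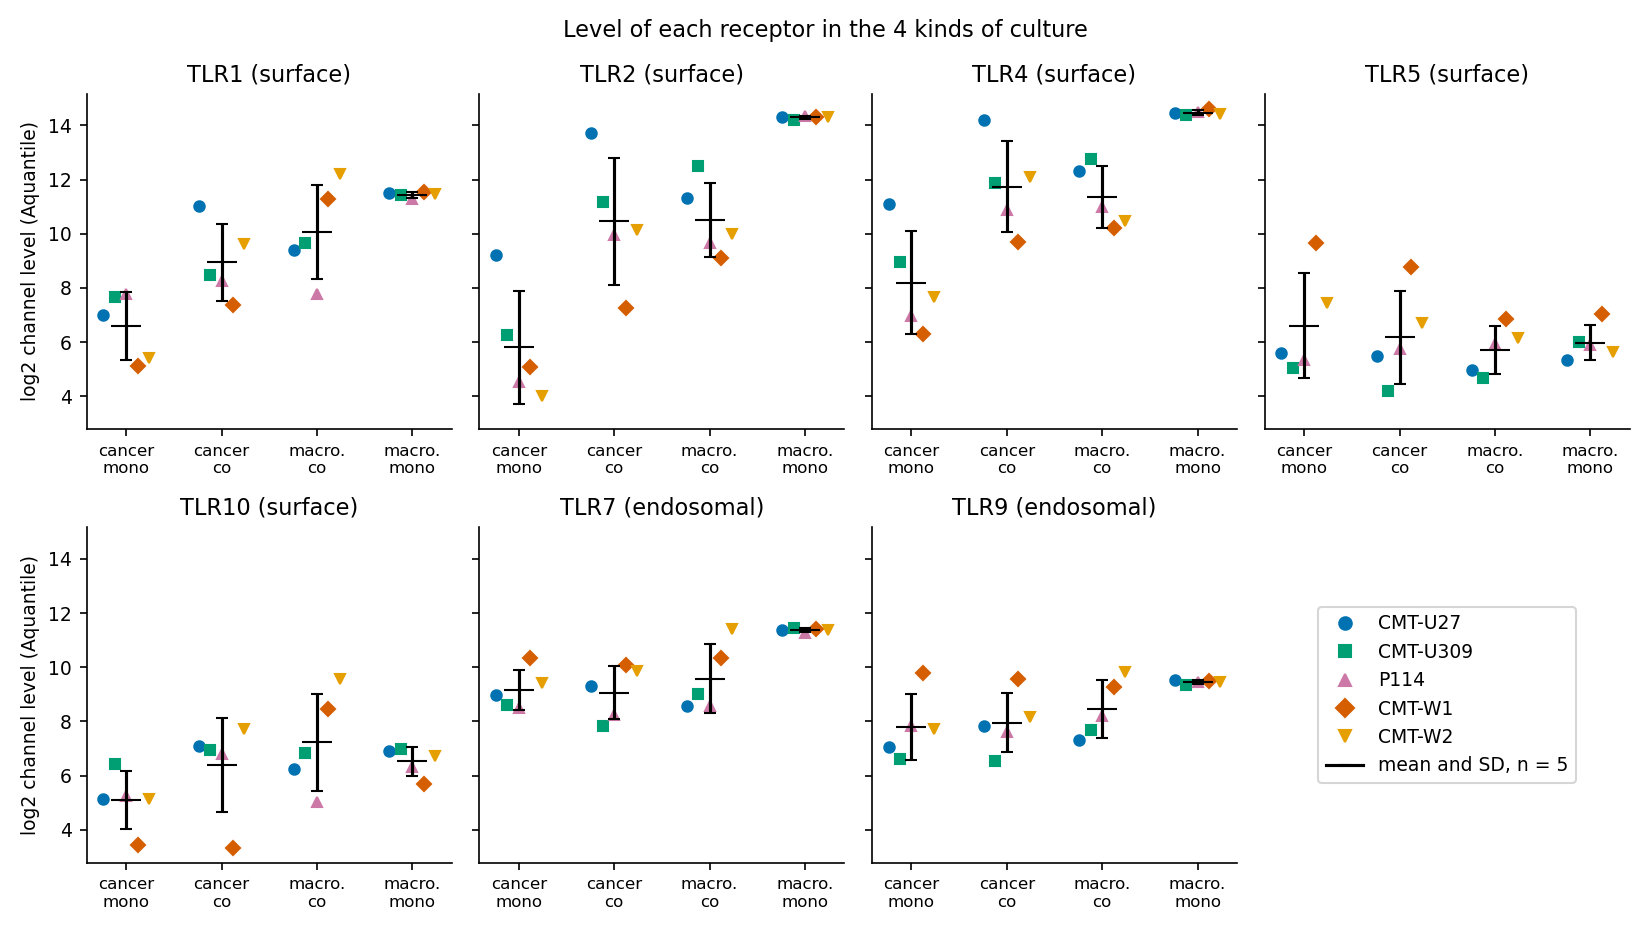
Log2 channel level of each receptor in mono-cultured and co-cultured cancer cells and in co-cultured and mono-cultured macrophages, 1 point per line with the mean and SD of 5. Levels are to be compared within a panel only. The points of the mono-cultured macrophages may all come from a single culture. For TLR2 and TLR4 the mono-cultured macrophages lie above all other cultures, and the co-cultured populations overlap.

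For TLR2 the order of the levels was mono-cultured macrophages (14.29 ± 0.06), co-cultured macrophages (10.52 ± 1.37), co-cultured cancer cells (10.46 ± 2.33) and mono-cultured cancer cells (5.82 ± 2.08; all SD, n = 5). The mono-cultured macrophages did not overlap with any other culture, and how many of all genes share this was not counted. The co-cultured macrophages and the co-cultured cancer cells were neighbours that overlapped, as did the co-cultured and the mono-cultured cancer cells, since the mono-culture of CMT-U27 was at 9.23 while the other 4 lay between 3.998 and 6.27.

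For TLR4 the order was mono-cultured macrophages (14.46 ± 0.09), co-cultured cancer cells (11.74 ± 1.67), co-cultured macrophages (11.35 ± 1.13) and mono-cultured cancer cells (8.19 ± 1.89; all SD, n = 5). Here too only the mono-cultured macrophages stood apart from their neighbour. Among the mono-cultured cancer cells CMT-U27 was again highest, at 11.09, followed by CMT-U309 at 8.94, CMT-W2 at 7.66, P114 at 6.97 and CMT-W1 at 6.29, where the probe was not well above background.

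For TLR1, TLR7 and TLR9 the mono-cultured macrophages were also the highest, at 11.45 ± 0.11, 11.38 ± 0.07 and 9.46 ± 0.06 (SD, n = 5), but the co-cultured macrophages overlapped with them. With CMT-W2 the co-cultured macrophages were at 12.21 for TLR1, 11.43 for TLR7 and 9.84 for TLR9. TLR10 was at 6.53 ± 0.54 in mono-cultured and 7.23 ± 1.801 in co-cultured macrophages, at 6.39 ± 1.74 in co-cultured and 5.09 ± 1.07 in mono-cultured cancer cells, and each overlapped with the next. TLR5 was the only receptor with its highest mean in mono-cultured cancer cells (6.61 ± 1.94), where CMT-W1 was at 9.65 and the other 4 lines between 5.03 and 7.45, and all neighbours in its order overlapped. CMT-W1 was also the highest of the mono-cultured cancer lines for TLR7 (10.35, the others 8.48 to 9.40) and TLR9 (9.78, the others 6.63 to 7.82).

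Between the populations sorted from the co-cultures no receptor was called in either direction, while 0.00843% of the 23716 genes tested (2 genes) were called, 0.00422% higher and 0.00422% lower, and 633 had an unadjusted p under 0.05. Of the 6 receptors 0 had an unadjusted p under 0.05 (limma). Co-cultured macrophages minus co-cultured cancer cells gave 0.07 for TLR2 (95% interval -2.23 to 2.36), -0.39 for TLR4 (-2.15 to 1.38), 1.12 for TLR1 (-0.81 to 3.05), 0.84 for TLR10 (-1.30 to 2.98), 0.52 for TLR7 (-0.94 to 1.98) and 0.51 for TLR9 (-0.90 to 1.91). These intervals leave room for differences of several fold in either direction. They come from a fit that leaves the pairing of the populations aside, and with the co-culture as a replicate block, added after seeing the data, no receptor was called either (adjusted p from 0.546 to 0.969; 3 of all genes called, 2788 with an unadjusted p under 0.05). The sign for TLR2 turned without CMT-U309 (-0.25) and without CMT-W1 (-0.39), and that for TLR10 without CMT-W1 (-0.23).

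Within single co-cultures the receptors of the sorted populations were set against the mean level in mono-cultured macrophages. In CMT-U27 the cancer cells carried TLR4 at 82.4%, TLR1 at 74.4% and TLR2 at 67.6% of that level. The macrophages from the same culture were lower, at 22.6%, 24.1% and 12.7%. In that co-culture the macrophage markers were also higher in the cancer cells, at a median of 57.8% against 17.6%. The summed level of the listed tumour markers was lower in the cancer cells, at 7180 against 18200. In CMT-U309 it was lower too (427000 against 494000), and in P114, CMT-W1 and CMT-W2 higher. What other cells contribute was not tested. In CMT-U309 the cancer cells carried TLR4 at 16.6% and TLR2 at 11.6%, below the macrophages at 30.6% and 28.8%. In P114 the populations were close, with TLR4 at 8.22% and 9.09% and TLR2 at 4.97% and 4.07% in cancer cells and macrophages.

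In the adenocarcinoma co-cultures the receptors went separate ways. In CMT-W1 the cancer cells carried TLR4 at 3.63% and TLR2 at 0.763% and the macrophages at 5.23% and 2.78%, whereas TLR1 was at 5.86% in the cancer cells and 89.1% in the macrophages. In CMT-W2 TLR4 was at 19.4% in the cancer cells and 6.33% in the macrophages, TLR2 at 5.67% and 5.12%, and TLR1 at 28.3% and 170%. The macrophages of CMT-W1 and CMT-W2 carried TLR10 at 384% and 820% of the mono-culture.

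**Figure D4:**
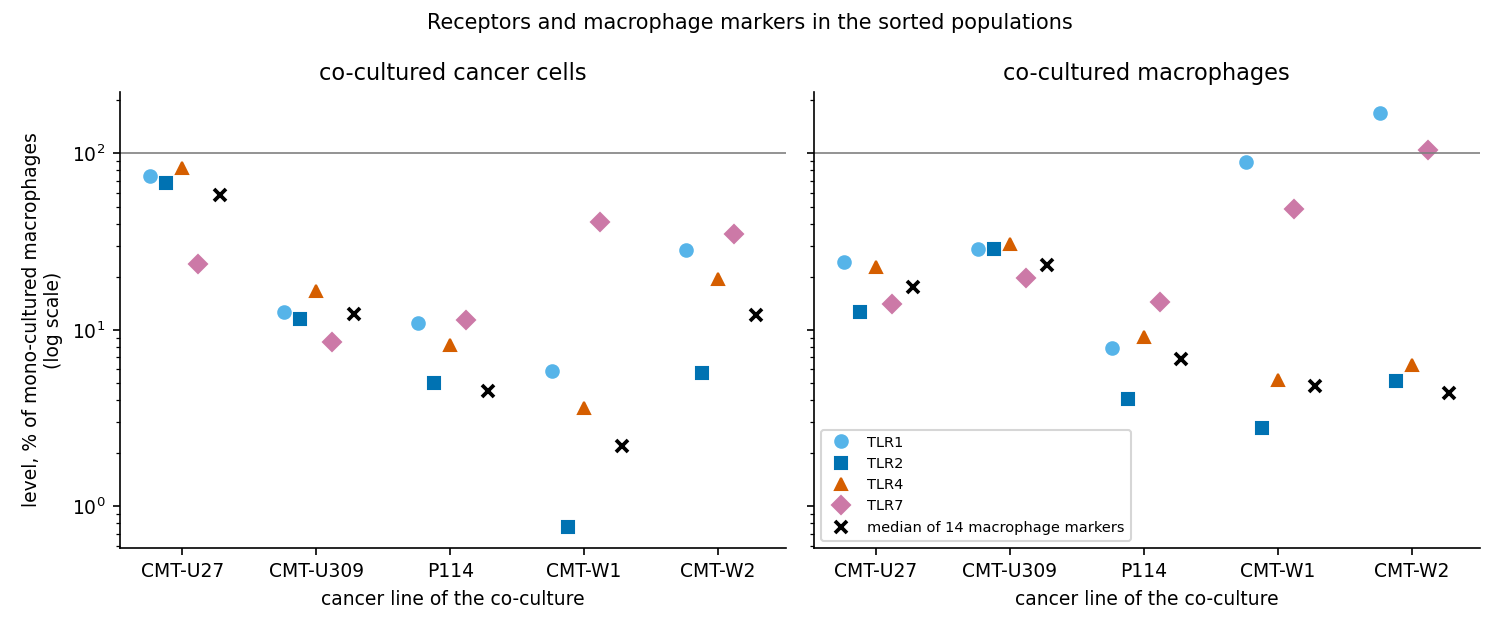
Level of TLR1, TLR2, TLR4 and TLR7 in the co-cultured cancer cells (left) and macrophages (right) as a percentage of the mean in mono-cultured macrophages, on a log axis, with the median of the 14 macrophage markers as a cross. TLR4 lies close to the markers in most co-cultures, while TLR1 and TLR7 lie far above them in the macrophages of CMT-W1 and CMT-W2.

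The macrophage markers gave nearly the same order of the populations as TLR4. Their median in the cancer cells was 57.8% in CMT-U27, 12.3% in CMT-U309, 4.52% in P114, 2.2% in CMT-W1 and 12.2% in CMT-W2. In the macrophages it was 17.6% with CMT-U27, 23.2% with CMT-U309, 6.85% with P114, 4.83% with CMT-W1 and 4.38% with CMT-W2. TLR7 stood at 41.1% in the cancer cells of CMT-W1 and at 48.6% and 104% in the macrophages of CMT-W1 and CMT-W2, above these marker values, and was at 48.9% in the mono-culture of CMT-W1. The part of macrophage RNA in the cancer cell levels was not tested.

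The mean ratios of both probes of TLR2 and of TLR4 had the same direction in each cell type. A second probe for TLR4, printed 5 times per array, averaged 4.13 on the log2 scale in the cancer cells (limma, adjusted p = 0.00489, every probe on its own) and -3.66 in the macrophages (adjusted p = 0.00223). Its spread in the cancer cells was wider than that of the brightest TLR4 probe (SD 1.32), with CMT-W1 lowest at 1.83. In the mono-cultured cancer cells it was well above background on 3 of 10 arrays. A second probe for TLR2 had 2.69 (adjusted p = 0.0164) and -3.15 (adjusted p = 0.000909), a smaller rise than the 4.64 of the brighter probe, with CMT-W1 at 0.44. The 5 printed spots of TLR4 had a median SD within an array of 0.13 log2 units and a highest of 1.31. Arrays with exchanged dyes had the same sign in all 5 pairs of each cell type for TLR1, TLR2, TLR4 and TLR7, with a gap of at most 1.61 log2 units (TLR2 in cancer cells). For TLR10 they had the same sign in the cancer cell pairs of CMT-U27, P114 and CMT-W2 and in all 5 macrophage pairs, with a gap of up to 2.61. In the cancer cells of CMT-W1 both TLR10 ratios were 0, and CMT-U309 had a value on 1 array only. For TLR9 they had the same sign in 4 of 5 cancer cell pairs (-0.45 and 0.29 in CMT-U309) and in all 5 macrophage pairs. For TLR5 they had the same sign in 3 of 5 cancer cell pairs and 2 of 5 macrophage pairs.

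Few genes of the signalling chain could be named on the array, while most of the genes it induces could. Of 13 co-receptors and accessory proteins 3 had a probe, of 30 adaptors and kinases 1, of 15 transcription factors 1, of 15 inhibitors 3, of 25 induced genes 22, and of 16 other innate sensors and TIR-domain receptors 0. Among the co-receptors CD36, a scavenger receptor that assists TLR2, fell in the macrophages (log2 ratio -3.80, SE 0.74, limma, adjusted p = 0.00511) and was not tested in the cancer cells. HSP90B1, the endoplasmic reticulum chaperone that Toll-like receptors need to fold, rose in the macrophages by 1.52 (adjusted p = 0.00556) and was at 1.07 in the cancer cells (adjusted p = 0.107). HMGB1, a nuclear protein that can act as a ligand of TLR4 once released, was at 0.15 and 0.89 in cancer cells and macrophages (adjusted p = 0.853 and 0.108).

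The kinase MAPK14 (p38) fell in the macrophages (log2 ratio -1.26, limma, adjusted p = 0.0227) and was at 0.73 in the cancer cells (adjusted p = 0.0784), a difference of -1.99 between the cell types (adjusted p = 0.00568). NFKB1, a subunit of NF-kB, rose in both, by 1.33 in the cancer cells (adjusted p = 0.0316) and by 0.74 in the macrophages (adjusted p = 0.0443), in 5 of 5 populations of each. Of the inhibitors, IL10 and SOCS3 fell in both cell types in all 5 populations. IL10, the anti-inflammatory cytokine, was at -1.12 in the cancer cells (limma, adjusted p = 0.0275) and at -1.35 in the macrophages (adjusted p = 0.00258), and SOCS3, a suppressor of cytokine signalling, at -0.84 (adjusted p = 0.0411) and -1.48 (adjusted p = 0.00236).

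Of the 22 induced genes 16 rose and 0 fell in the cancer cells, where 6.68% of all genes tested were called higher and 7.54% lower, with a median log2 ratio of 4.17 against -0.05 over all genes. The 3 largest called ratios were those of CXCL8, the neutrophil chemokine, at 7.67 ± 1.499 (SD, n = 5; limma, adjusted p = 0.000746), PTGS2, cyclooxygenase-2, at 7.17 ± 2.21 (adjusted p = 0.00323) and MMP9, a gelatinase, at 5.37 ± 1.23 (adjusted p = 0.00125), each above 0 in all 5 lines. TNF, a classic product of TLR4 signalling, was at 0.49 (adjusted p = 0.171), and CXCL10, CCL20, IL12A, IL12B and IL18 did not pass either, with ratios from 1.48 to 3.35.

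In the macrophages 6 of the 22 induced genes rose and 4 fell, a share close to that of all genes tested, of which 21.2% were called higher and 28.1% lower. Their median log2 ratio was 0.44, against -0.17 over all genes. Those that rose were CSF2, the granulocyte-macrophage growth factor, at 4.31 ± 1.39 (SD, n = 5; limma, adjusted p = 0.000619), CXCL10, an interferon-induced chemokine, at 4.28 ± 0.72 (adjusted p = 0.000126), IL12A, a subunit of interleukin-12, at 3.79 ± 1.30 (adjusted p = 0.000834), and CCL20, IL6 and IFNB1 at 3.47, 2.94 and 2.33. Those that fell were the co-stimulatory molecules CD86 (-3.66), which is also on the macrophage marker list, and CD80 (-1.98) and the cytokines IL1A (-1.89) and IL18 (-1.47). CXCL8 was at 0.56 ± 3.48 and TNF at 0.32 ± 0.49 and neither passed (adjusted p = 0.707 and 0.319). Between the cell types, where 15% of all genes tested were called higher and 16.9% lower, 13 of the 22 differed with the lower ratio in the macrophages, led by CD86 (-7.97), PTGS2 (-7.79) and MMP9 (-7.65), and 1, IL12A, with the higher (2.31, adjusted p = 0.03).

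**Figure D5:**
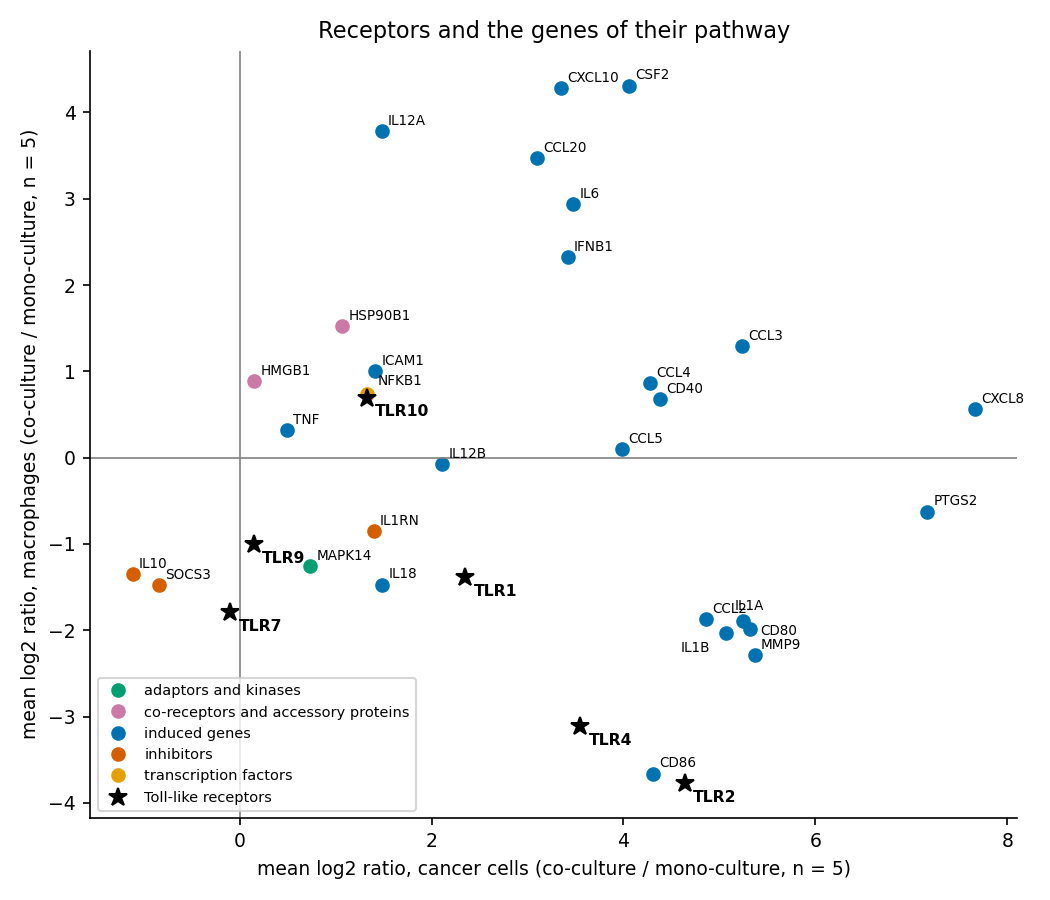
Mean log2 ratio (co-culture / mono-culture) in the cancer cells (horizontal) against the macrophages (vertical), n = 5 each, for the 6 receptors tested (stars) and the pathway genes tested in both cell types, coloured by list. TLR2 and TLR4 lie in the lower right with CD86, while CSF2, CXCL10 and IL6 lie in the upper right.

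The genes whose 10 log2 ratios were most like those of TLR2, among 534 genes with a symbol measured in all 10 populations, were CD163 (Pearson r = 0.98), IL1A (0.98), TLR4 (0.98), FCER1G (0.98) and C5AR1 (0.97). For TLR4, among 533 genes, they were FCGR1A (0.996), CTSS (0.99), PTGES (0.99), C5AR1 (0.98) and TYROBP (0.98). Of these, CD163, FCER1G, C5AR1, FCGR1A, CTSS and TYROBP stand on the macrophage marker list. The correlations describe the 10 populations and carry no p, since the points share the split between cell types and the arrays.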

How the data were processed

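Per the labels, the spots of the 2-colour arrays were extracted with Agilent Feature Extraction 10.7.3.1. The authors deposited its tables, with spot signals as intensity, marks of 0 or 1 for saturation, outliers and signal above background, and a log10 ratio of Cy5 over Cy3, background-corrected and with the dyes normalized by a linear and a lowess step. A value table the authors also deposited holds the same log10 ratio turned to co-culture over mono-culture (largest gap 5.0e-06). No column was without a sample.

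Ratios were turned the same way, converted to log2 and averaged within each dye-swap pair. The brightest probe stood for a gene. Genes were tested where either culture was well above background on both arrays in at least 3 of 5 pairs, all 5 values then being used. The difference of ratios needed this in either cell type. The levels needed it for the culture compared, in either cell type. limma 3.58.1 (R 4.3.3) fitted the means and differences, with Benjamini-Hochberg adjustment. Channel levels came from the processed intensities made comparable by Aquantile. Tables were read and plots drawn with pandas 2.3.3, numpy 2.4.6 and matplotlib 3.10.9 under Python 3.11.15. Symbols came from a RefSeq table of UU_Cfam_GSD_1.0, which named 1648 of 43603 probes; no coordinates are given, since the array design uses another build.

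Every receptor is named, up to 3 called genes per pathway list and cell type with the largest ratios, and the 5 genes most like TLR2 and TLR4; TNF, HMGB1 and the other pathway genes were named after their values were seen. The receptors and lists were chosen with earlier results of these data known. On simulated data with 200 changed genes, the cancer cell test recovered 53% of 4-fold and 93% of 16-fold changes, the macrophage test 59% and 93%, the difference of ratios 48% and 91%, the mono-culture levels 42% and 87%, and the co-culture levels 18% and 75%. Array number limits the precision. Alternatives covered background correction with normalization or centring, filters, dye orientation, slide, scan day, the methods' t-test and each line left out.

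The populations of a co-culture share the cell line and are paired by design. Across 21935 genes their deviations from the group means correlated at 0.06 (CMT-U27), 0.50 (CMT-U309), 0.22 (P114), 0.29 (CMT-W1) and 0.09 (CMT-W2).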

Additional observations from a re-analysis of the deposited data

Results flagged for a closer look

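The level of TLR10 in the co-cultured cancer cells of CMT-W1 was 3.35 on the log2 scale, far below the other 4 lines (6.81 to 7.74). The gap was 0.789 of the range of the 5 values. TLR10 was not well above background on either array there, so the value is a signal near background. Of 42 groups of 5 values examined in this way 1 stood out, and chance marks about 1 in 20 groups.

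The ratio of co-culture over mono-culture differed between macrophages and cancer cells for TLR1 (-3.74), TLR4 (-6.66), TLR2 (-8.41) and TLR7 (-1.70), as macrophages minus cancer cells by limma. TLR1, TLR4 and TLR2 were above 0 in 5 of 5 cancer cell populations and below 0 in 4, 5 and 5 of 5 macrophage populations, while TLR7 was below 0 in 3 and 4.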

How the results depend on the processing

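The macrophage calls of TLR2 and TLR4 held under all 19 alternatives, and the cancer cell calls of both under all but those named here. In the cancer cells, 3 called receptors became 0 with normexp background correction and loess (TLR2 2.10, adjusted p = 0.0766; TLR4 2.18, adjusted p = 0.05; TLR1 0.95, adjusted p = 0.121; 61 genes called in all against 3415), 1 (TLR4) with normexp and median centring, 1 (TLR4) with a filter on all 5 pairs, which left 3 receptors to test, and 0 with the methods' t-test, which called 7 of 24022 genes. At the methods' own cut-off the t-test passed 0 receptors in the cancer cells and 2, TLR4 and TLR2, in the macrophages. TLR1 also lost its call there with no filter on dim probes (adjusted p = 0.1) and with the co-culture in Cy5 only (0.0567). In the macrophages 3 became 2, without TLR7, with normexp and median centring and with no filter on dim probes, 5, with TLR1 and TLR9, with the slide as a random block and with a dye term over 10 arrays, 4, with TLR9, with one fit for both cell types, and 3 to 5 when each co-culture was left out in turn. For the difference of ratios 4 became 2 with normexp and median centring, 3 with no filter on dim probes (TLR7, adjusted p = 0.056), 2 to 4 with a co-culture left out, 0 with the slide as a fixed block and 2 with the scan day as a block, both chosen after seeing the data, as was leaving out pairs below background (TLR1 in cancer cells 2.38, adjusted p = 0.0746; TLR10 1.66, adjusted p = 0.0343). The co-culture as a replicate block, a paired fit, kept 4 calls, on TLR1, TLR4, TLR2 and TLR7, and called 0 receptors between the co-cultured levels. Signs turned only among values that did not pass: TLR10 between cell types (0.25 with normexp and loess, 0.35 with normexp and median centring), TLR2 between co-cultured levels (-0.24 with normexp; -0.39 to 0.69 with a line left out), TLR10 between them (-0.23 to 1.49), TLR7 in cancer cells (0.14 with normexp and median centring; -0.24 to 0.074) and TLR9 there (-0.12 with the co-culture in Cy3; -0.013 to 0.24). The cause was not tested. The median of all genes moved from -0.05 to 0.16 in the cancer cells with normexp and median centring, and from -0.17 to 0.00 in the macrophages with normexp and loess.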
